A study of Rattus norvegicus with 6 samples.

Results

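Matrix metalloproteinases (MMPs), ADAMTS proteases and the tissue inhibitors of metalloproteinases (TIMPs) were examined in rat bone marrow mesenchymal stem cells labelled aged and young. The members were all symbols that begin with Mmp, Adamts, Adamtsl or Timp followed by a number. The rule found 45 of the 21026 symbols in the count table: 18 MMPs, 17 ADAMTS genes, 5 ADAMTS-like genes (ADAMTSL), 4 TIMPs and Mmp24os. The last is an opposite-strand gene that overlaps Mmp24 and is no protease, so it is counted apart.

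MMPs are zinc-dependent proteases that are made as inactive precursors and cut collagens, gelatin, proteoglycans and many other matrix and cell surface proteins. ADAMTS enzymes are secreted relatives with thrombospondin repeats, which bind them to the matrix. Some of them mature procollagens and others cut proteoglycans, COMP or fibrillin-rich microfibrils. ADAMTS-like proteins share these ancillary domains but lack the protease domain, and TIMPs bind the active site of the proteases and block it. In bone marrow stroma the balance between them shapes matrix turnover, cell migration and the release of growth factors.

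The aged group and the young group each had 3 libraries of polyadenylated RNA from these cells, which are the adherent stromal cells of the marrow. The labels give no strain, age, sex, passage or culture condition. They number the libraries as biological replicates but do not tie one to an animal, so p-values measure the spread between libraries, which may be partly technical. Library totals ran from 34638874 to 38921547 counts in aged cells and from 40180480 to 42479626 in young cells. All 10 stromal markers looked up were detected in both groups, with Lepr and Vcam1 the lowest at under 1 CPM (counts scaled to a common library size) on average. Lepr had 28, 26 and 14 counts in aged libraries and only 1, 2 and 10 in young ones. Of the 10 markers 6 were lower and 2 higher in aged cells. They summed to 20253 to 20491 CPM in aged libraries and 40504 to 41041 CPM in young ones, most of it Col1a1 and Col1a2. Mitochondrial genes took 4.25% to 4.46% of the counts in aged libraries and 1.07% to 1.36% in young ones, and 17790 to 17995 genes had a count in aged libraries, against 16337 to 16492 in young ones. Young replicate 2 stood somewhat apart: its counts differed from those of the other young libraries with a chi-square per degree of freedom of 8.98 and 10.98, against 3.61 between those libraries and 3.13 to 3.60 among aged ones. Levels below are CPM scaled by the trimmed mean of M values (TMM), and changes are log2 ratios of aged over young with their standard error. They were tested with edgeR's quasi-likelihood test and called at a Benjamini-Hochberg adjusted p under 0.05 over all 14273 tested genes. In bulk RNA, fewer cells that express a gene and less RNA of it per cell cannot be told apart.

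Most matrix proteases were lower in aged cells, while a single inhibitor, Timp3, was far higher. Of the 44 family members 33 had enough counts to test, of which 24 were lower, 8 higher and 1, Mmp16, was not called. Over all tested genes 86.4% were called, 41.8% lower and 44.7% higher, so the number of calls as such says little about the families. Groups did not overlap for 87.5% of all tested genes, so a lack of overlap says little either. The members' median log2 change was -1.26, against 0.05 over all tested genes. Scaling by library size alone shifted the median change of all genes by 0.34 on the log2 scale and moved the higher share of all calls to 62.3%, against 51.7% with TMM. No tested member changed direction under any of the 11 alternative settings. Of the 33 tested members, 19 were called and at least 2-fold lower and 4 at least 2-fold higher, against 21% and 29.4% of all tested genes. Called and at least 8-fold lower were 6 members: Mmp3, Mmp9, Mmp10, Mmp13, Adamts7 and Adamts15. Among all tested genes 3.15% were that much lower. Mmp10 and Mmp13 had enough counts to test only in young cells, so a fall was the only outcome open to them. Timp3 was called and at least 8-fold higher, as were 9.37% of all tested genes. The sum of the stromal markers, the mitochondrial share and the number of genes detected moved with the groups too, and their part in these changes was not tested.

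**Figure D1:**
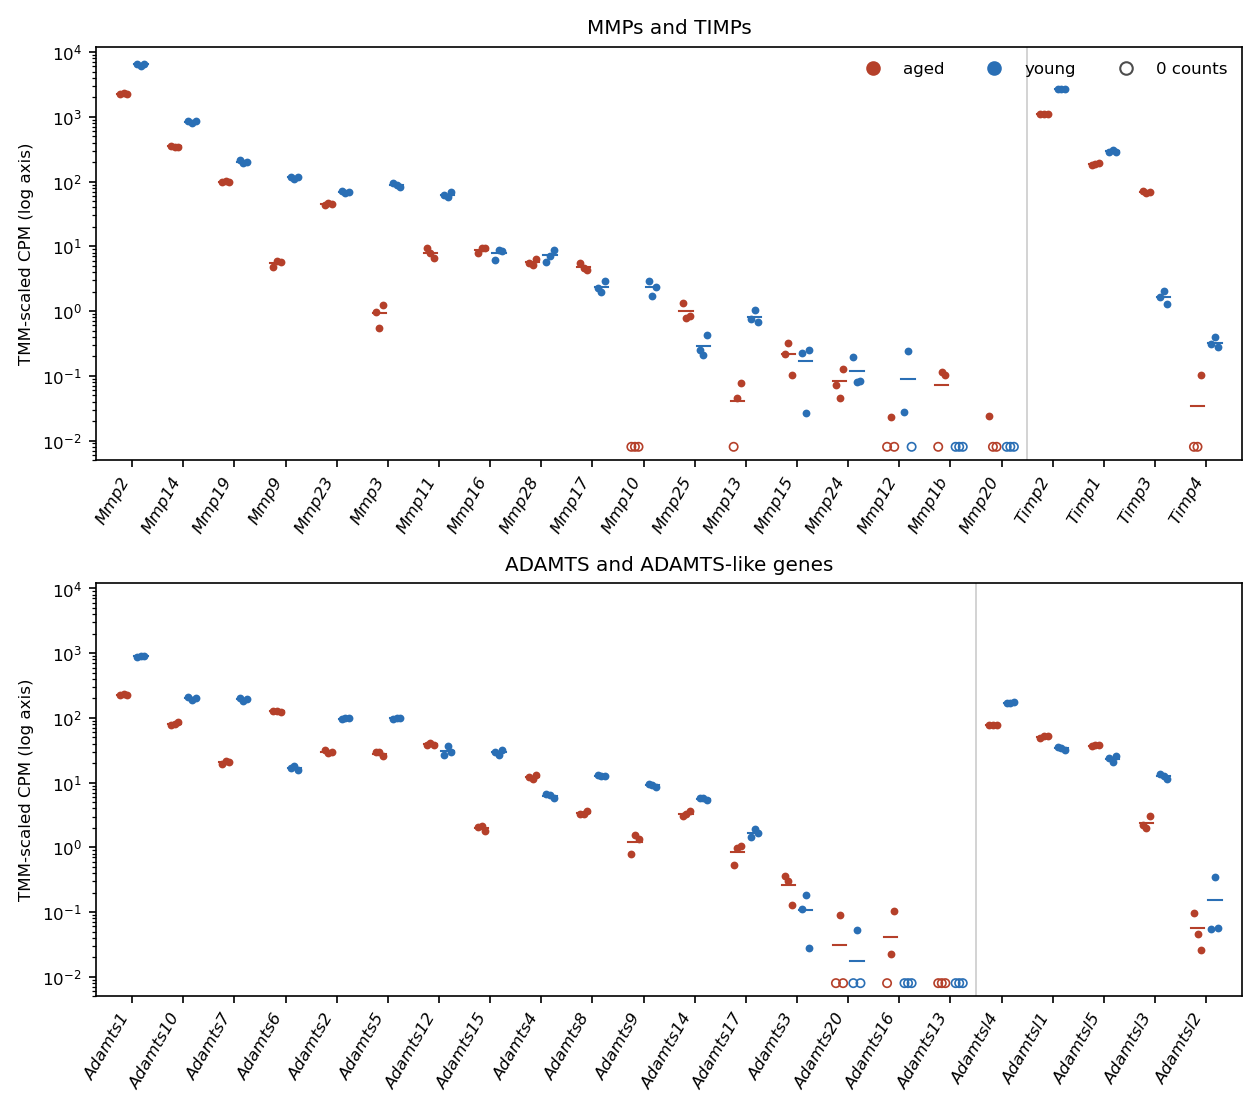
Level of every MMP and TIMP (top) and every ADAMTS and ADAMTS-like gene (bottom) in each library, in TMM-scaled CPM on a log axis, with aged libraries left of young ones for each gene. Points are libraries, short lines are group means (none is drawn under 0.012 CPM), and open circles at the base of the axis are libraries with 0 counts. Timp3 sits near 69 CPM in aged cells and under 2.1 CPM in young cells, while Mmp3, Mmp9 and Mmp10 lie far lower in aged cells.

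Several of the proteases with the largest falls lie side by side on rat chromosome 8, where Mmp13, Mmp12, Mmp1b, Mmp3, Mmp10 and Mmp20 form a cluster of MMP genes. Promoters of several MMPs in this cluster are known from other species as targets of AP-1, the dimer of FOS and JUN proteins that binds TGAGTCA or TGACTCA. Sequences before the start of the gene were taken from RefSeq (build GRCr8), which gave 44 promoters for 34 of the 45 members. Those not scanned were Mmp2, Mmp9, Mmp14, Mmp16, Mmp17, Mmp19, Mmp24os, Adamts5, Adamts8, Adamts15 and Adamts16. The looser TGANTCA, where N is any base, was looked for on either strand of the 250 bases before the start. It was found in 5 of these 34 genes: Mmp3, Mmp10, Mmp12 and Mmp13, as TGAGTCA or TGACTCA, and Mmp20, as TGAATCA. That was 5 of the members' 44 promoters, or 11.4%, against 6.34% of all 33469 RefSeq promoters. The last 130 bases before the start follow for 4 of them, as these genes include Mmp3, Mmp10 and Mmp13, which are among the members at least 8-fold lower, with the TGANTCA match in capitals, and for Timp3, the member with the largest rise, which holds none. Adamts7, also among the members at least 8-fold lower, was scanned and held no match. Of 21 tested members scanned without a match, 14 were lower and 7 higher, and all 3 tested members with a match were lower. Of these 3, Mmp10 and Mmp13 had enough counts to test only in young cells, so they could only come out lower. These numbers therefore cannot compare members with and without a match. Over all tested genes 41.8% were lower. A match describes letters only and shows no binding, and its part in the falls was not tested.
Mmp3, chr8:12925151-12925280, plus strand: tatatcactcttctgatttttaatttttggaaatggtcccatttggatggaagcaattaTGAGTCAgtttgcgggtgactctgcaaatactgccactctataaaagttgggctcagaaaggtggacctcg
Mmp10, chr8:12974577-12974706, plus strand: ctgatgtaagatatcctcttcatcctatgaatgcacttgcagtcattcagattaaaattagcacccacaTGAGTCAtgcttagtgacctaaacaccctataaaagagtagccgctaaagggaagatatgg
Mmp13, chr8:12782699-12782828, plus strand: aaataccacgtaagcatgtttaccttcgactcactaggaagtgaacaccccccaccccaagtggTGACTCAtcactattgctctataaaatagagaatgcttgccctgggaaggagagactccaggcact
Mmp12, chr8:12866522-12866651, plus strand: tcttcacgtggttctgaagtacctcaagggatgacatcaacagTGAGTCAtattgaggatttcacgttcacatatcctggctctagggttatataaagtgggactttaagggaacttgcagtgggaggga
Timp3, chr7:19459559-19459688, minus strand: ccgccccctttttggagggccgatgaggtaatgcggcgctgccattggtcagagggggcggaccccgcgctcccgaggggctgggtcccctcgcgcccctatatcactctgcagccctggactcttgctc
The match began 71 bases before the start in Mmp3, 61 in Mmp10, 66 in Mmp13 and 87 in Mmp12. Each of these 4 promoters also held TATAAA between the match and the start, without overlap. It began 32 bases before the start in Mmp3, 33 in Mmp10, 47 in Mmp13 and 39 in Mmp12. TATAAA was present on either strand in 12.9% of all promoters. The Timp3 window was richer in G and C, 68.5% of its bases, than those of Mmp3 and Mmp10 with 40.8% and 40.0%.

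The stromelysin genes of this cluster and the collagenase gene Mmp13 were nearly silent in aged cells, and Mmp13 was low in young cells too. Mmp3, stromelysin 1, which cuts proteoglycans and activates other MMPs, had 40, 24 and 49 counts in aged libraries and 3392, 3377 and 2957 in young ones. Its mean was 0.925 ± 0.355 CPM in aged cells and 88.6 ± 5.62 CPM in young cells (SD, n = 3 each), a fall of 96.7-fold (edgeR adjusted p = 6.1e-18), the 63rd largest of all tested genes. Mmp10, stromelysin 2, had 0 counts in every aged library and 106, 65 and 84 counts in young ones. Set against a floor of 3 counts per library it was at least 32.1-fold lower in aged cells. Mmp13, the main collagenase of rodents, had 0, 2 and 3 counts in aged libraries and 27, 39 and 24 in young ones (log2 change -4.23 ± 0.63, edgeR adjusted p = 7.2e-06). Its mean was 0.0409 ± 0.0387 CPM in aged cells and 0.816 ± 0.188 CPM in young cells. All young libraries lay above all aged ones for each of these 3 genes. The rest of the cluster was too low to test. Mmp12, macrophage elastase, had 1 count in all aged libraries and 10 in all young ones, 9 of them in young replicate 2, a ratio of 0.0886 (95% exact binomial interval 0.00204 to 0.622, counting error only). Mmp1b, a rodent relative of the interstitial collagenase, had 0, 5 and 4 counts in aged libraries and none in young ones. The enamel protease gene Mmp20 had 1 count in all 6 libraries together.

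The gelatinases also fell, by very different amounts. Mmp9, gelatinase B, had 4.87, 6.03 and 5.74 CPM in aged libraries and 118, 109 and 119.7 CPM in young ones. It was 20.8-fold lower in aged cells (log2 change -4.38 ± 0.07, edgeR adjusted p = 1.4e-18), with no overlap between the groups. Mmp2, gelatinase A, was by counts the bulk of the family. Its levels were 2278, 2296 and 2247 CPM in aged libraries and 6580, 6204 and 6575 CPM in young ones, a fall of 2.84-fold (edgeR adjusted p = 1.9e-18). Mmp2 took 81.1% ± 0.117 of all MMP counts in aged cells and 82.2% ± 0.146 in young cells, a difference of about 1 percentage point. Summed over the family, MMP levels were 2803 ± 31.1 CPM in aged cells and 7850 ± 270 CPM in young cells (SD, n = 3 each). Myeloid cells and osteoclasts also make Mmp9 and Mmp12, and lists of their markers were read beside these values. The 9 macrophage and monocyte markers summed to 43.4 to 44.5 CPM in aged libraries and 93.0 to 95.9 CPM in young ones. Of the 4 tested, 3 were lower and 1, Csf1r, higher. Csf1r rose 67.5-fold, with 925, 935 and 837 counts in aged libraries and 8, 8 and 19 in young ones. Cd14, most of the young sum, had 21.0 ± 0.600 CPM in aged cells and 80.7 ± 0.772 CPM in young cells. Among those too low to test, Itgam had 8, 10 and 2 counts in aged libraries and 2, 4 and 1 in young ones. Mrc1 had 13, 3 and 6 against 0, 2 and 0, and Tyrobp 0, 0 and 0 against 1, 3 and 1. The defining leukocyte gene Ptprc had 1 count in all aged libraries and 0 in all young ones, and the macrophage gene Adgre1 had 0 counts in every aged library and 6, 3 and 7 in young ones. Lyz2 had 0.173 ± 0.149 CPM in aged cells and 10.4 ± 1.33 CPM in young cells, a fall of 57.8-fold (edgeR adjusted p = 1.4e-12). The 6 neutrophil markers summed to 1.12 to 1.89 CPM in aged libraries and 14.8 to 15.8 CPM in young ones. Of the 3 tested, Mpo and Camp were lower and Ngp higher. Mpo had 0.0503 ± 0.0513 CPM in aged cells and 10.7 ± 0.359 CPM in young cells, and Ngp had 0.482 ± 0.0884 CPM in aged cells and 0.0352 ± 0.0609 CPM in young cells. The 5 osteoclast markers summed to 33.0 to 34.6 CPM in aged libraries and 97.5 to 106 CPM in young ones, most of it Ctsk, while Calcr, Ocstamp and Dcstamp were at or near 0. The part of such cells in the Mmp9 result was not tested. Markers of other marrow cells were read as well. Adipocyte markers summed to 0.413 to 0.718 CPM in aged libraries and 346 to 364 CPM in young ones, with 3 of 3 tested lower. Chondrocyte markers summed to 3.49 to 4.24 CPM in aged libraries and 4.13 to 4.85 CPM in young ones, and endothelial markers to at most 0.678 CPM in any library. Their part in the members' changes was not tested.

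Membrane-bound MMPs went both ways. Mmp14, the transmembrane collagenase that activates pro-MMP2, had 358, 348 and 342 CPM in aged libraries and 863, 795 and 852 CPM in young ones. That was a fall of 2.39-fold (log2 change -1.26 ± 0.04, edgeR adjusted p = 8.6e-16). Mmp16, another transmembrane enzyme, had 7.97, 9.26 and 9.51 CPM in aged libraries and 6.15, 8.76 and 8.54 CPM in young ones. The groups overlapped and it was not called (log2 change 0.19 ± 0.13, edgeR adjusted p = 0.20), but it passed as higher when libraries were scaled by size alone (log2 change 0.52). Both genes for enzymes held by a lipid anchor were higher in aged cells. Mmp17 had 232, 204 and 168 counts in aged libraries and 82, 76 and 104 in young ones, a rise of 2.03-fold (edgeR adjusted p = 6.4e-05). Mmp25 had 55, 34 and 33 counts in aged libraries and 9, 8 and 15 in young ones, a rise of 3.35-fold (edgeR adjusted p = 0.0011). For both genes every aged library lay above every young one. Mmp15 and Mmp24, the remaining transmembrane members, were too low to test, with 27 and 10 counts in all aged libraries and 18 and 13 in all young ones. Mmp24os, at 10.4 ± 0.448 CPM in aged cells and 31.1 ± 1.61 CPM in young cells, fell 2.99-fold. Whether strand was used in counting is not given in the sources used here, so its reads and those of Mmp24 cannot be told apart where they overlap.

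Of the other MMPs, Mmp11, Mmp19 and Mmp23 were clearly separated between the groups and lower in aged cells. Mmp11, stromelysin 3, which is activated inside the cell by furin, had 9.28, 7.80 and 6.72 CPM in aged libraries and 62.9, 57.2 and 68.4 CPM in young ones, a fall of 7.91-fold (edgeR adjusted p = 6.0e-15). Mmp19 had 97.9, 103 and 99.0 CPM in aged libraries and 212, 197 and 199 CPM in young ones, a fall of 2.03-fold (edgeR adjusted p = 1.6e-13). Mmp23, an MMP with a cysteine-rich domain in place of the usual hemopexin domain, had 43.3, 46.5 and 45.7 CPM in aged libraries and 72.0, 66.4 and 69.0 CPM in young ones (log2 change -0.62 ± 0.05, edgeR adjusted p = 6.9e-09). Mmp28, epilysin, was called lower (log2 change -0.37 ± 0.15, edgeR adjusted p = 0.036), yet its groups overlapped. Its levels were 5.57, 5.11 and 6.28 CPM in aged libraries and 5.74, 7.18 and 8.93 CPM in young ones, and the call was lost without young replicate 3 (edgeR adjusted p = 0.21), without aged replicate 1 (0.088), without aged replicate 2 (0.13) or with scaling by size alone (0.86). Of 13 tested MMPs, 10 were thus lower and 2 higher, with a median log2 change of -1.26, the same with Mmp10 set at its bound. Shares over all tested genes were 41.8% lower and 44.7% higher.

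**Figure D2:**
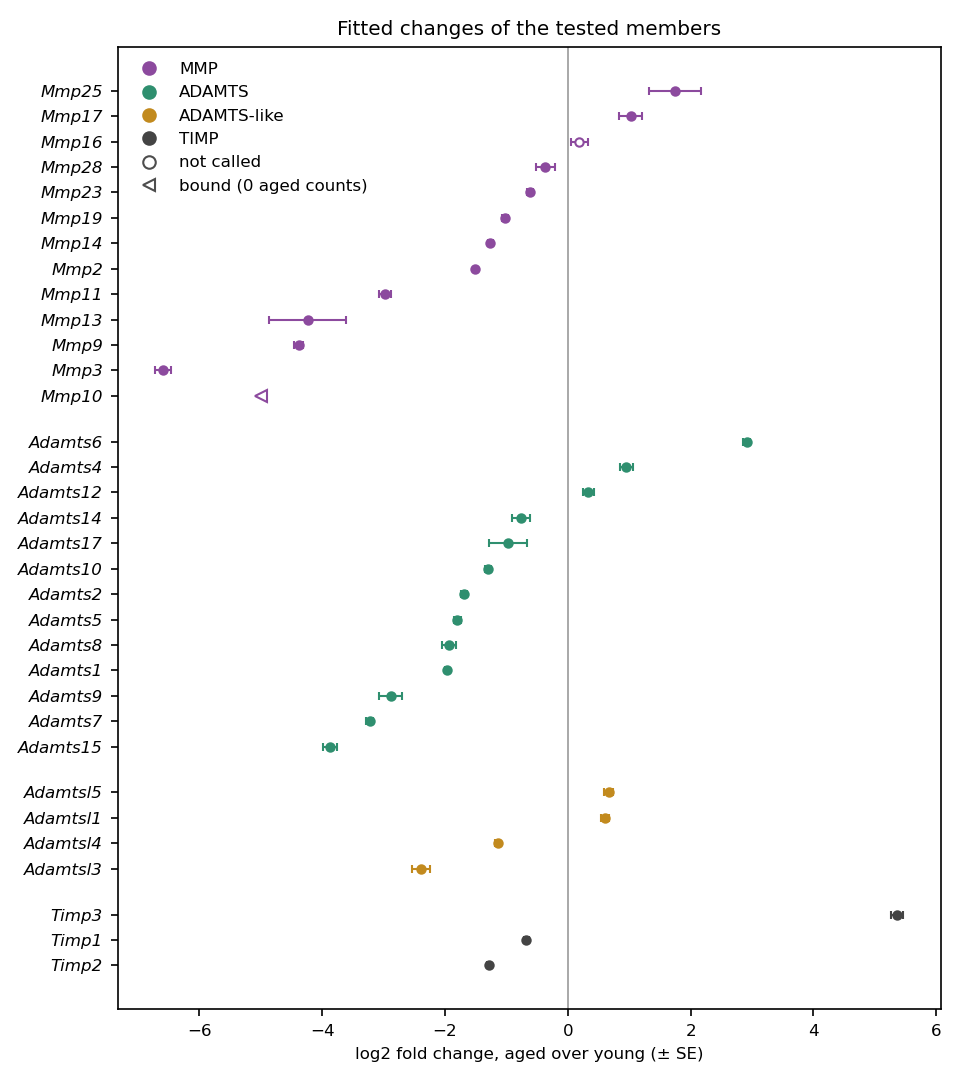
Fitted log2 fold change of aged over young for the 33 tested family members, grouped by family, with bars of 1 standard error. Filled points were called and the open circle, Mmp16, was not; Mmp10 is drawn as a triangle at the bound that 0 aged counts allow. Timp3 stands far to the right of the other members, and Mmp3 lies farthest to the left among the fitted values.

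Proteoglycan-cutting ADAMTS genes were mostly lower in aged cells, with Adamts4 as the exception. Adamts1, whose enzyme cuts versican and aggrecan, had 225, 232 and 229.8 CPM in aged libraries and 879, 895 and 909 CPM in young ones, a fall of 3.91-fold (edgeR adjusted p = 6.6e-19). Adamts5, an aggrecanase gene, had 29.5, 29.6 and 25.5 CPM in aged libraries and 96.6, 99.1 and 98.4 CPM in young ones, a fall of 3.47-fold (edgeR adjusted p = 6.8e-15). Adamts15 fell most of the family, 14.6-fold, with 84, 95 and 71 counts in aged libraries and 1065, 1011 and 1147 in young ones (edgeR adjusted p = 1.4e-15). These 3 genes had no overlap between groups. Adamts9 had 33, 67 and 53 counts in aged libraries and 345, 351 and 303 in young ones, a fall of 7.36-fold (edgeR adjusted p = 1.2e-10). Adamts8 had 136, 141 and 140 counts in aged libraries and 471, 489 and 455 in young ones, a fall of 3.83-fold. Adamts4, the other main aggrecanase gene, had 499, 496 and 507 counts in aged libraries and 242, 242 and 204 in young ones, a rise of 1.94-fold (edgeR adjusted p = 2.7e-07). Adamts5 and Adamts4 thus moved in opposite directions, with no overlap between the groups. Adamts20 had 4 counts in aged and 2 in young libraries.

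Of the procollagen-processing members, Adamts2 and Adamts14 fell and Adamts3 was too low to test. Adamts2, the main procollagen I N-proteinase, had 31.8, 29.2 and 29.8 CPM in aged libraries and 96.3, 98.6 and 98.1 CPM in young ones, a fall of 3.23-fold (edgeR adjusted p = 2.6e-15). Adamts14, of the same subgroup, had 125, 144 and 140 counts in aged libraries and 206, 217 and 194 in young ones, a fall of 1.70-fold (edgeR adjusted p = 1.1e-04). Adamts3, the third member, had 15, 13 and 5 counts in aged libraries and 4, 7 and 1 in young ones. Its ratio was 2.44 (95% exact binomial interval 1.23 to 5.18, counting error only), on the other side from Adamts2 and Adamts14.

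In the pairs Adamts7 and Adamts12, and Adamts10 and Adamts6, the first gene fell and its close relative rose. Adamts7, which cuts COMP, had 19.7, 21.3 and 20.7 CPM in aged libraries and 201, 185 and 193 CPM in young ones, a fall of 9.37-fold (edgeR adjusted p = 6.6e-19). Its relative Adamts12 had 38.6, 40.7 and 38.1 CPM in aged libraries and 26.3, 37.2 and 29.7 CPM in young ones. This was called higher (log2 change 0.33 ± 0.09, edgeR adjusted p = 0.0030) in every setting, with a log2 change of 0.67 with scaling by size alone, 0.48 without young replicate 2 and 0.21 without young replicate 1. Adamts6, which acts on microfibrils and cell junctions, had 128, 129 and 124 CPM in aged libraries and 16.8, 17.9 and 15.6 CPM in young ones. It rose 7.55-fold, the largest rise among the tested MMP and ADAMTS genes (log2 change 2.92 ± 0.06, edgeR adjusted p = 8.4e-18). Adamts10, its fibrillin-binding relative, had 78.1, 79.5 and 86.1 CPM in aged libraries and 212, 189 and 200.2 CPM in young ones, a fall of 2.47-fold (edgeR adjusted p = 5.7e-14). Adamts17 had 22, 42 and 41 counts in aged libraries and 52, 72 and 60 in young ones (log2 change -0.98 ± 0.31, edgeR adjusted p = 0.0076), a call lost with scaling by size alone (edgeR adjusted p = 0.064). Adamts13, which cuts von Willebrand factor, had 0 counts in all 6 libraries, and Adamts16 had 5 counts in aged libraries and 0 in young ones. Of 13 tested ADAMTS genes 10 were lower and 3 higher, with a median log2 change of -1.69. Shares over all tested genes were 41.8% lower and 44.7% higher.

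The make-up of the ADAMTS counts differed between the groups. Adamts1 took 39.6% ± 0.255 of all ADAMTS counts in aged cells and 56.0% ± 0.779 in young cells (SD, n = 3 each). Adamts6 took 21.9% ± 0.501 in aged cells and 1.05% ± 0.0831 in young cells, and Adamts7 took 3.56% ± 0.103 in aged cells and 12.1% ± 0.490 in young cells. These are shares of reads, which also depend on transcript length, so only the difference between groups is read from them. In sum the family had 578 ± 6.17 CPM in aged cells and 1596 ± 13.1 CPM in young cells.

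**Figure D3:**
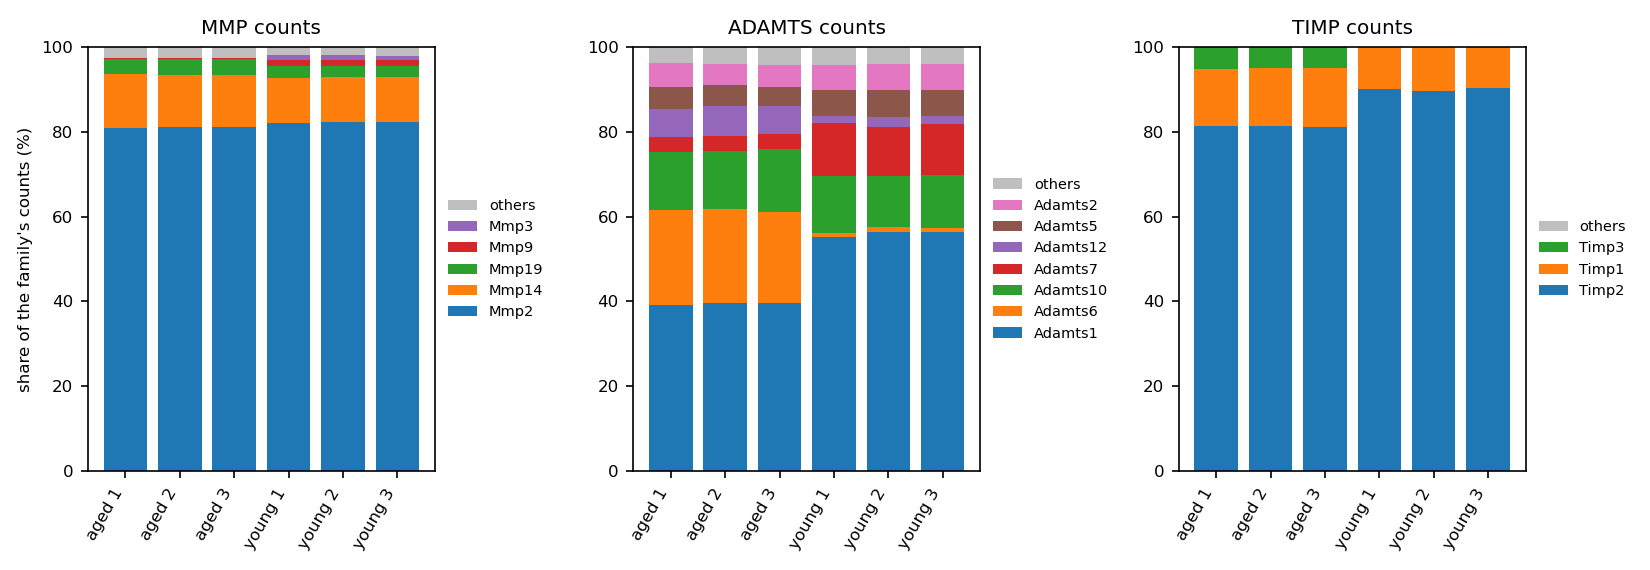
Share of each family's counts taken by its leading members, in percent, in each of the 3 aged (left) and 3 young (right) libraries, for MMPs, ADAMTS genes and TIMPs. Mmp2 holds about the same share throughout, Adamts6 widens to 21.9% in aged cells on average, and Timp3 appears as a visible band in the aged libraries only.

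ADAMTS-like genes, whose products bind fibrillin microfibrils without cutting them, were divided. Adamtsl4 had 78.9, 77.1 and 77.6 CPM in aged libraries and 171, 169 and 176 CPM in young ones, a fall of 2.21-fold (edgeR adjusted p = 1.5e-14). Adamtsl3 fell 5.23-fold, to 2.42 ± 0.531 CPM in aged cells, against 12.6 ± 1.08 CPM in young cells. Adamtsl1 had 48.5, 53.3 and 52.6 CPM in aged libraries and 35.4, 34.2 and 31.8 CPM in young ones, a rise of 1.52-fold (edgeR adjusted p = 5.9e-08). Adamtsl5 had 36.6, 37.5 and 38.3 CPM in aged libraries and 24.3, 20.8 and 25.6 CPM in young ones, a rise of 1.59-fold (edgeR adjusted p = 2.0e-07). All 4 had groups that did not overlap, as had 87.5% of all tested genes. Adamtsl2 had 4, 2 and 1 counts in aged libraries and 2, 13 and 2 in young ones, and its young sum rests on replicate 2.

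Among the inhibitors, the 2 with the most counts were lower and Timp3 was higher by a wide margin. Timp3, which binds to the matrix and also inhibits aggrecanases and ADAM17, had 2928, 2908 and 2659 counts in aged libraries and 60, 77 and 46 in young ones. Its mean was 68.6 ± 2.15 CPM in aged cells and 1.66 ± 0.372 CPM in young cells (SD, n = 3 each), a rise of 41.1-fold (log2 change 5.36 ± 0.10, edgeR adjusted p = 5.4e-18). That was the 254th largest rise of 14273 genes. Timp3 lies within Syn3, and the counts of Syn3 did not move with it, at 17, 17 and 15 in aged libraries and 14, 23 and 22 in young ones (edgeR adjusted p = 0.32). Timp2, which inhibits MMP2 and also takes part in its activation by MMP14, had 1102, 1098 and 1109 CPM in aged libraries and 2672, 2708 and 2703 CPM in young ones. It fell 2.44-fold (edgeR adjusted p = 5.8e-18). Timp1, a strong inhibitor of MMP9 but a weak one of membrane-type MMPs, had 181, 185 and 190.5 CPM in aged libraries and 289, 309 and 291 CPM in young ones, a fall of 1.60-fold (edgeR adjusted p = 1.4e-11). Timp4 was too low to test, with 0, 0 and 4 counts in aged libraries and 11, 15 and 10 in young ones, a ratio of 0.0984 (95% exact binomial interval 0.0254 to 0.275, counting error only). For all 4 genes the groups did not overlap, as for 87.5% of all tested genes, and for Timp4 this rests on few counts. Timp3 made up 5.05% ± 0.161 of TIMP counts in aged cells and 0.0555% ± 0.0122 in young cells, so Timp2 and Timp1 together still held most of them in both groups. The family summed to 1357 ± 9.27 CPM in aged cells and 2993 ± 28.8 CPM in young cells.

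Ratios of a protease to an inhibitor within a library do not depend on how libraries are scaled. Summed MMP counts per TIMP count were 2.08, 2.10 and 2.02 in aged libraries and 2.71, 2.50 and 2.67 in young ones. Summed ADAMTS counts per TIMP count were 0.423, 0.433 and 0.423 in aged libraries and 0.538, 0.525 and 0.537 in young ones. Both sums of proteases thus stood lower against the inhibitors in aged cells, in every library. Timp2 took 81.3% of TIMP counts in aged cells and 90.0% in young cells on average. Mmp2 took 81.1% and 82.2% of MMP counts, so the MMP ratio largely follows Mmp2 to Timp2. Of 11 pairs of single genes compared, 10 had groups that did not overlap. Among single genes 87.5% of all tested had no overlap, and the pairs share genes, so this number says little by itself. Each of the 10 pairs had an exact two-sided permutation p of 0.1, the smallest that 3 against 3 libraries can give. The adjusted p was 0.11 over the 11 pairs. The exception was Mmp14 to Timp2, with ratios of 0.325, 0.317 and 0.309 in aged libraries and 0.323, 0.293 and 0.315 in young ones (exact permutation p = 0.60). Mmp2 to Timp2 was 2.07, 2.09 and 2.03 in aged libraries and 2.46, 2.29 and 2.43 in young ones, a small difference of -0.22 on the log2 scale. The activation trio Mmp2, Mmp14 and Timp2 thus fell by similar amounts, between 2.39-fold and 2.84-fold. Mmp9 to Timp1 was 0.0268, 0.0325 and 0.0301 in aged libraries and 0.409, 0.354 and 0.411 in young ones, 13.1-fold lower in aged cells. The widest gaps among the 11 pairs were those of Adamts1 and Adamts5 to Timp3. Adamts5 to Timp3 was 0.416, 0.444 and 0.375 in aged libraries and 58.1, 48.8 and 76.4 in young ones, and Adamts1 to Timp3 was 3.17, 3.48 and 3.37 in aged libraries and 529, 440.4 and 706 in young ones. Even Adamts4, which itself rose, had 21.5-fold fewer counts per Timp3 count in aged cells.

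**Figure D4:**
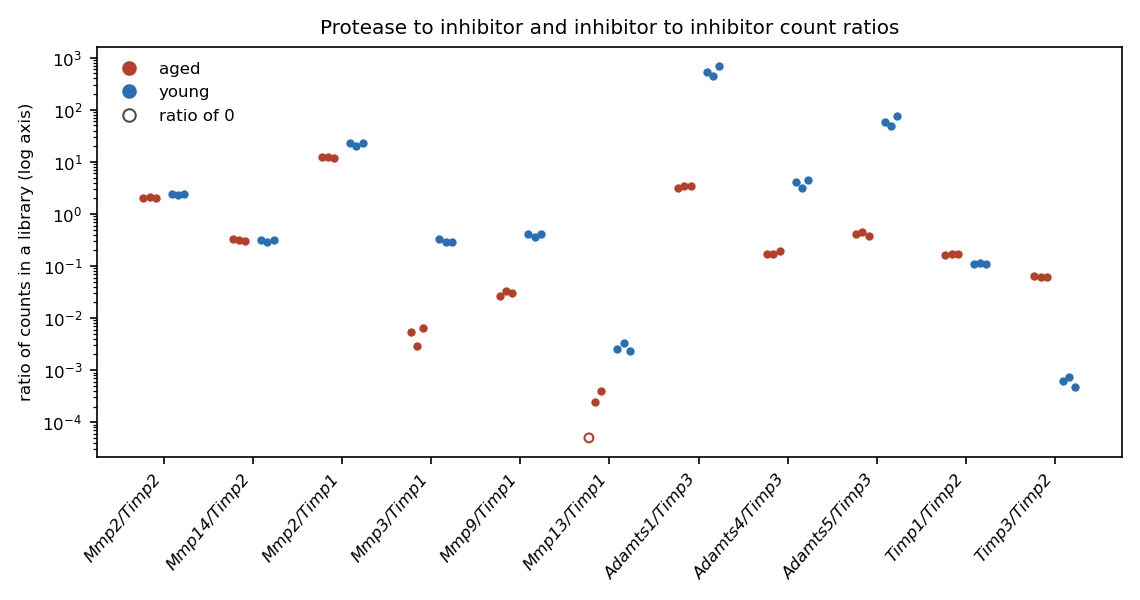
Ratio of the counts of 2 genes within each library, on a log axis, for 11 pairs of a protease and an inhibitor or of 2 inhibitors, with aged libraries left of young ones. Points are libraries and the open circle is a ratio of 0. Mmp14 to Timp2 overlaps between groups, while Adamts1 to Timp3 and Adamts5 to Timp3 differ most.

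Transcripts of genes that regulate these enzymes were also mostly lower in aged cells. Of 20 tested regulator genes 16 were lower and 3 higher, with a median log2 change of -1.10. Over all tested genes 41.8% were lower and 44.7% higher. Reck, a membrane-anchored MMP inhibitor, had 69.5 ± 1.48 CPM in aged cells and 299.97 ± 7.01 CPM in young cells (SD, n = 3 each), a fall of 4.32-fold (edgeR adjusted p = 3.7e-18). Transcripts of A2m, which encodes a plasma protein that traps proteases, were low at 0.137 ± 0.0700 CPM in aged cells and 0.434 ± 0.234 CPM in young cells, too low to test. The MMP inducer Bsg fell 2.17-fold, the endocytic receptor Lrp1, which clears MMPs, ADAMTS enzymes and TIMPs, fell 3.04-fold, and the collagen receptor Mrc2 fell 4.23-fold. Fbln1, a cofactor of ADAMTS1, fell 6.98-fold. Furin, the convertase that activates MMP14 and the ADAMTS enzymes, fell 1.26-fold (log2 change -0.34 ± 0.03, edgeR adjusted p = 7.2e-08), and its relative Pcsk6 rose 4.53-fold.

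Other metalloprotease families were mixed, and are read beside 44.7% higher and 41.8% lower over all tested genes. Of 10 tested ADAM genes, which encode membrane-anchored sheddases and their relatives, 4 were higher and 5 lower, but with scaling by size alone 4 were higher and 2 lower, and the median of -0.17 became 0.17. Adam10 rose 3.01-fold, Adam23 fell 3.87-fold and Adam17 fell 1.20-fold. Of 6 tested astacin, pappalysin and procollagen-processing genes, 4 were higher and 2 lower. Bmp1, the procollagen C-proteinase, fell 4.08-fold, to 54.9 ± 1.24 CPM in aged cells, against 224 ± 2.49 CPM in young cells. Its relatives, named after their values were seen, went the other way. Tll1 had 51.9 ± 1.87 CPM in aged cells and 33.5 ± 2.89 CPM in young cells (SD, n = 3 each), a rise of 1.55-fold (edgeR adjusted p = 7.4e-08). Tll2 rose as well, with 118, 148 and 121 counts in aged libraries and 0, 0 and 1 in young ones (edgeR adjusted p = 1.9e-10). Pappa2, which cuts IGF-binding proteins, rose 9.20-fold.

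Transcription factors with known sites in MMP promoters were mixed, with 9 of 15 lower and 4 higher. Shares over all tested genes were 41.8% lower and 44.7% higher. Nr4a1 had the smallest p of those that fell, 68.8-fold, to 13.6 ± 0.372 CPM in aged cells, against 935 ± 26.2 CPM in young cells, and Ets2 of those that rose, 1.93-fold. Among the AP-1 subunits, singled out after their values were seen, Junb fell 4.51-fold, Fosl1 1.76-fold, Fosl2 1.43-fold and Jun 1.26-fold, while Fosb rose 1.69-fold. Fos was not called (log2 change -0.09 ± 0.12, edgeR adjusted p = 0.47), nor was Jund (log2 change 0.08 ± 0.04, edgeR adjusted p = 0.11). Of 9 tested cytokines and growth factors known to change MMP transcription, 5 were lower and 4 higher. Against the shares over all tested genes, 41.8% and 44.7%, this split says little about the list. Lif fell 14.7-fold and Tgfb2 rose 9.59-fold. Il1a, an inducer of stromelysins that was chosen after its values were seen, had 0.294 ± 0.144 CPM in aged cells and 17.9 ± 1.76 CPM in young cells. Genes for substrates of ADAMTS enzymes were mostly lower, with 9 of 10 tested down and Comp up, against 41.8% lower over all tested genes. Fbn1, encoding fibrillin 1, fell 8.63-fold, and Comp rose to 2.02 ± 0.191 CPM in aged cells, against 0.0911 ± 0.0699 CPM in young cells.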

How the data were processed

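Reads were processed with fastp, HISAT2 and HTSeq, per the submitters' processing notes, and RNA was extracted with TRIzol, per the labels' protocols. Tool versions, build, annotation, strand setting and handling of multiply matching reads: not given in the sources used here. What the authors deposited is a table of raw counts per gene symbol, without normalization. Counts were tested in R 4.3.3 with edgeR 4.0.16 (filterByExpr minimum count 10, TMM, group as the only term). Standard errors are the change divided by the square root of F. Members removed by the filter are given as counts, and a count of 0 allows up to 3 counts, 0.0688 to 0.0840 CPM. Ratios of 2 genes used counts plus 0.5 and SciPy 1.17.1. Alternatives were DESeq2 1.42.0, limma 3.58.1 (voom), library size alone, no filter, a replicate block and leaving out each library. Counts were also simulated for this comparison (13993 genes run), with only 50 genes changed at each simulated fold and none of them at low counts. The test recovered 76% of genes changed 1.25-fold and 98% changed 2-fold, and 7.22% of its calls were false. In the real data 86.4% of tested genes were called, so this share of false calls does not carry over. Recovery of low-count genes was not simulated. Members, lists and tests were chosen with earlier results of these data known. All members may be named; values per library are given for TIMPs, the members with the highest mean CPM (8 MMPs, 8 ADAMTS, 3 ADAMTSLs) and the 3 largest rises and falls of MMPs and ADAMTS, and from each other list the gene with the smallest p in each direction plus 9 set regulators. Values per library of Mmp28, Adamts8, Adamts14 and Adamts17 were added after they were seen.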

Additional observations from a re-analysis of the deposited data

How the results depend on the processing

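Of 374 alternative values of the 34 tested rows, none changed direction, 368 stayed on the same side of the threshold, 5 lost the call (Mmp28 in 4 settings and Adamts17 in 1) and 1 gained it (Mmp16). The counts of called members of each of the 4 families stayed within 1.5 times under every setting. Scaling by library size alone left 2 ADAM genes lower instead of 5 and turned the ADAMTSL median from -0.27 to 0.07. Of the ADAMTS substrates 3 were higher with no low-count filter instead of 1, because more genes were tested, and 1 to 2 when each library was left out. The difference in the log2 ratio of Mmp14 to Timp2 ran from -0.0097 to 0.059 when each library was left out, and was reversed without young replicate 2 (-0.0097); that of Mmp13 to Timp1, which rests on 5 aged counts, was -1.90 with 5 added to each count instead of -3.69. Same-numbered libraries did not visibly deviate together (correlations of -0.013, 0.0080 and 0.026). With 3 libraries per group this cannot settle whether the numbers pair them, which the labels do not say. With a replicate block 12162 genes were called instead of 12339. Depth limits statements on Mmp1b, Mmp12, Mmp15, Mmp20, Mmp24, Adamts3, Adamts16, Adamts20, Adamtsl2 and Timp4.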
